A study of Saccharomyces cerevisiae with 4 samples.

Results

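The Slt2 MAP kinase cascade of budding yeast and the phosphatases that switch it off were followed in a mid2 mutant given caspofungin. The set holds 10 genes, chosen by systematic name from the 6207 gene rows of the deposited array table: PKC1 (YBL105C), BCK1 (YJL095W), MKK1 (YOR231W), MKK2 (YPL140C), SLT2 (YHR030C), RLM1 (YPL089C), KDX1 (YKL161C), MSG5 (YNL053W), PTP2 (YOR208W) and SDP1 (YIL113W). Caspofungin is an echinocandin drug that inhibits the enzyme making beta-1,3-glucan, the main load-bearing polymer of the yeast cell wall.

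In the cell wall integrity pathway, sensors of the plasma membrane, Mid2 among them, act through the GTPase Rho1 on protein kinase C, encoded by PKC1. Pkc1 starts a chain in which the kinase Bck1 acts on the paralogous kinases Mkk1 and Mkk2, and these act on the MAP kinase Slt2. Slt2 phosphorylates the transcription factor Rlm1, which drives cell wall genes and, as feedback, SLT2 itself. The cascade is controlled mainly by phosphorylation of proteins that are already present, and transcript ratios do not measure that.

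Cultures of the mid2 mutant in the BY4741 background, a haploid a-mating laboratory strain, were treated with 15 ng/ml caspofungin for 2 h or left untreated, both at 24 °C in rich medium. Both sides of each ratio carry the mid2 mutation, so the ratios do not compare the mutant with wild type, and the labels do not describe the mutant allele or the number of clones. RNA of 2 cultures, each divided between drug and no drug, was hybridised to 4 arrays with swapped dyes: caspofungin RNA was in Cy3 on arrays 1 and 3 and in Cy5 on arrays 2 and 4. Which arrays share a culture is not stated, so p-values come from limma on culture means with the larger p of both possible pairings, and the SD over arrays mixes culture, dye and scan. A positive log2 ratio is taken as higher with caspofungin. That direction is likely and not settled: it rests on the naming of the series by the treated condition. MID2 itself had no value on any array, and ratios carry no level by which the cell type could be checked.

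The cascade was sparsely measured. Of the 10 genes, 3 had a ratio on all 4 arrays (BCK1, MSG5 and SDP1), 2 on 3 arrays (PKC1 and SLT2), 1 on 2 arrays (RLM1) and 1 on a single array (KDX1). MKK1, MKK2 and PTP2, the last encoding a tyrosine phosphatase that acts on Slt2 and on the osmotic stress kinase Hog1, were blank on all 4. So 30% of the set had 4 ratios, against 47.1% of all gene rows, and 30% had none, against 29.1% of all rows. The rule that left cells blank is not given in the sources used here, so a blank says nothing about whether the gene was expressed.

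SLT2 had the highest mean of the cascade genes measured on more than 1 array, although it did not pass the test open to it. Its log2 ratios were 0.58 on array 1, 0.14 on array 2 and 0.95 on array 3, and array 4 was blank. All 3 ratios were positive, the lowest being on the array with caspofungin RNA in Cy5. They lay at the 91.0th, 75.7th and 95.6th percentile of the genes measured on those arrays. Among the 2970 genes measured on arrays 1 to 3, 8.01% were positive on each of these, and 132 genes (4.44%) had a lowest ratio at or above the lowest of SLT2.

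Because the missing array leaves the dyes of SLT2 unbalanced, its mean depends on how the dyes are weighted. The plain mean was 0.56 ± 0.41 (SD, n = 3 arrays), a 1.47-fold difference. The mean with both dye orientations given equal weight was 0.45, a 1.37-fold difference, with 0.77 for caspofungin RNA in Cy3 and 0.14 for caspofungin RNA in Cy5. This balanced mean was above that of 95.3% of the 3459 genes measured in each orientation. If each ratio is instead turned by its dye labels, against the reading taken here, the plain mean of SLT2 becomes -0.46. As deposited, the wall protein gene NCW2, described below, had 2.02, 2.13, 1.56 and 2.01 on arrays 1 to 4. It was thus positive in both dye orientations, and turning takes its mean to 0.14. In bulk RNA, more cells of a kind and more RNA per cell cannot be told apart.

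The test over genes with 4 values could not include SLT2. When genes with at least 3 values were tested, the limma interval for SLT2 was 0.09 to 1.22 (95%, log2) with an unadjusted p of 0.0333 and an adjusted p of 0.229. For a gene with 3 values, 1 culture rested on a single array, so the dyes do not cancel in that fit. The interval is therefore centred on neither mean of SLT2 given above. In that fit 20.6% of 3299 genes (680) had an unadjusted p under 0.05 and 0% (0 genes) passed after adjustment. With the arrays as replicates and a term for the dyes, a fit chosen after seeing the data that does not account for shared cultures, 176 of 3299 genes (5.33%) passed and SLT2 did not (0.45 ± 0.13, SE, limma, adjusted p = 0.0944).

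**Figure D1:**
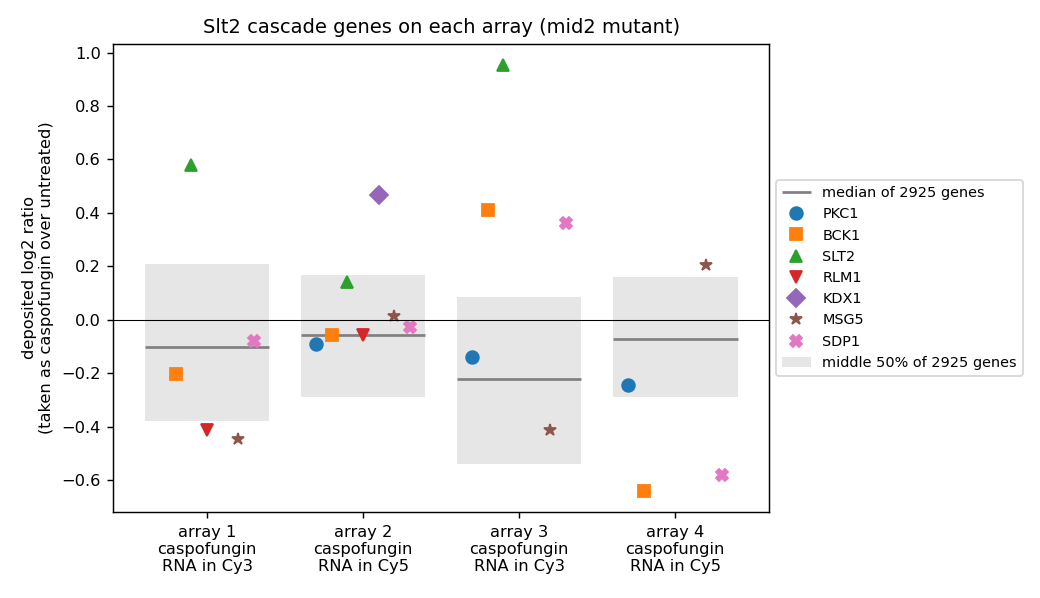
Log2 ratios (y axis) of the 7 measured cascade genes on each of the 4 arrays (x axis), beside the median (line) and the middle 50% (grey) of the 2925 genes with 4 values. SLT2 is above the grey band on arrays 1 and 3 and inside it on array 2, and BCK1 and SDP1 lie together above the band on array 3 and below it on array 4.

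SLT2 had a higher ratio than each other cascade gene but KDX1 on the arrays they share. It was the highest of 5 cascade genes on array 1, the second of 7 on array 2 and the highest of 5 on array 3. Its ratio exceeded that of BCK1 by 0.78, 0.20 and 0.54 on arrays 1, 2 and 3, and that of MSG5 by 1.03, 0.13 and 1.37. On array 2, the array that measured both, SLT2 minus KDX1 was -0.32. With ratios missing in different places, these differences were not tested.

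KDX1, also called MLP1, encodes a kinase-like paralogue of Slt2 and is itself known as a transcriptional target of Rlm1. Its ratio on array 2 was 0.47, at the 92.2nd percentile of the 4346 genes measured there. Of the 662 genes measured on array 2 alone, 97.0% were lower, and their median was -0.14. This value has no replicate and no dye swap. Both MAP kinase paralogues thus had positive ratios wherever they were measured, on 3 arrays for SLT2 and on 1 for KDX1.

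RLM1, the MADS-box transcription factor gene, did not share the positive ratios of SLT2. It had -0.41 on array 1 and -0.06 on array 2, which are the 26.2nd and 52.3rd percentile, and a mean of -0.24 ± 0.25 (SD, n = 2 arrays). SLT2 minus RLM1 was 0.99 on array 1 and 0.20 on array 2.

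PKC1, the protein kinase C gene at the head of the cascade, had ratios close to the middle of all genes. It had -0.09 on array 2, -0.14 on array 3 and -0.24 on array 4, with a mean of -0.16 ± 0.08 (SD, n = 3 arrays). All 3 were negative, as were 31.8% of the 3116 genes measured on those arrays. Less each array's median over the 2925 genes the ratios were -0.03, 0.08 and -0.17, of mixed sign. PKC1 did not pass among genes with at least 3 values (limma interval -0.40 to 0.12, adjusted p = 0.372).

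BCK1, the MAP kinase kinase kinase gene, had ratios that differed most between arrays 3 and 4. They were -0.20, -0.06, 0.41 and -0.64 on arrays 1 to 4. Array 3 was high and array 4 low, at the 88.1st and the 7.26th percentile, and arrays 1 and 2 lay near the middle of all genes. The mean was -0.12 ± 0.43 (SD, n = 4 arrays) with an interval of -0.52 to 0.28 (limma, adjusted p = 0.622), which spans from 0.696-fold to 1.21-fold. Without array 4 the mean was 0.05.

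Of the phosphatases, MSG5 and SDP1 encode related dual-specificity enzymes that dephosphorylate Slt2, and their ratios had opposite signs on arrays 3 and 4. MSG5 had -0.45, 0.01, -0.41 and 0.20 on arrays 1 to 4. It was negative on both arrays with caspofungin RNA in Cy3 and positive on both with it in Cy5, a pattern that 19.7% of the 2925 genes shared. Its mean was -0.16 ± 0.32 (SD, n = 4 arrays), with an interval of -0.41 to 0.08 (limma, adjusted p = 0.320). The part of its ratio that follows the dyes was larger, 0.27, and did not pass either (limma, adjusted p = 0.133, unadjusted p = 0.0364). By that test 0 of the 2925 genes passed for the dyes, while 944 (32.3%) had an unadjusted p under 0.05.

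SDP1, known as a stress-inducible phosphatase gene, had -0.08, -0.03, 0.36 and -0.58 on arrays 1 to 4. It was high on array 3 and low on array 4, as BCK1 was. The mean was -0.08 ± 0.39 (SD, n = 4 arrays), with an interval of -0.44 to 0.28 (limma, adjusted p = 0.718). Centred on each array's median its mean was 0.03, and without array 4 it was 0.09, so its sign is not fixed.

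The likeness of SDP1 to BCK1 was close on each array and far from that of MSG5. BCK1 and SDP1 differed by -0.13, -0.03, 0.05 and -0.06 on arrays 1 to 4 (BCK1 minus SDP1), while each spanned about a log2 unit between arrays 3 and 4. By the distance of the 4 ratios SDP1 was the 6th nearest of 2924 genes to BCK1, at 0.150 against a median distance of 1.10. Genes outside the cascade were nearer to BCK1, among them YIL102C (0.0820), TAF8 (0.122) and YLL056C (0.141). To SDP1 the nearest were MMT2 (0.0769), CDH1 (0.0776) and YLL056C (0.102), so this likeness was not particular to cascade genes. MSG5 ranked 1765th for BCK1 and differed from SDP1 by -0.37, 0.04, -0.78 and 0.79 on arrays 1 to 4 (MSG5 minus SDP1). The BCK1 and SDP1 comparison was chosen after the values were seen, and arrays that share RNA or dye are not independent points. MSG5 had the largest absolute mean of the 3 cascade genes with 4 ratios. The genes nearest to it were TKL1, which encodes transketolase (distance 0.0916), PRS1, a phosphoribosyl pyrophosphate synthetase gene (0.0948), and GPD2, a glycerol phosphate dehydrogenase gene (0.106), against a median distance of 0.795.

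**Figure D2:**
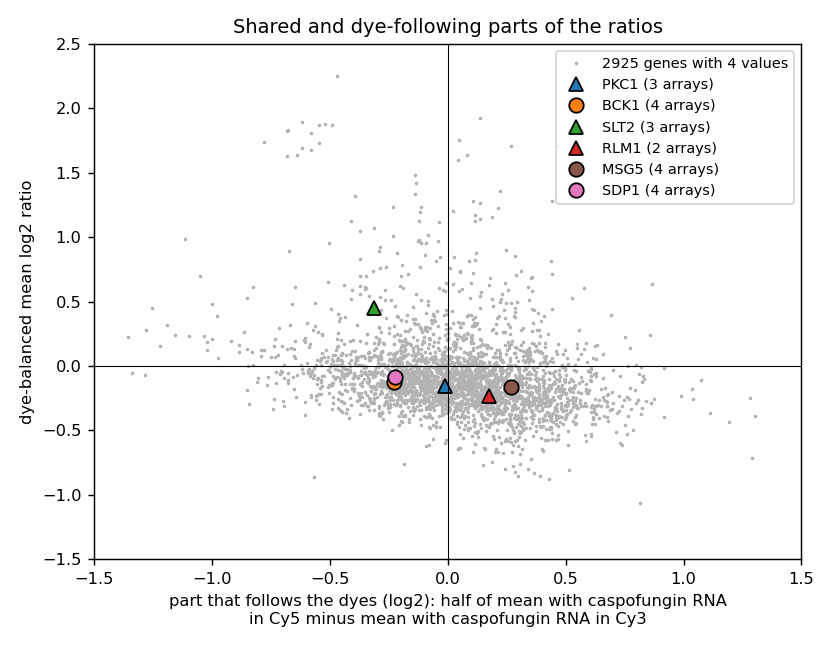
Dye-balanced mean log2 ratio (y axis) against the part that follows the dyes (x axis, log2) for the 2925 genes with 4 values (grey, 5 of them outside the axes) and the 6 cascade genes measured in each dye orientation (circles 4 arrays, triangles fewer). SLT2 sits above the main cloud at 0.45, and the other 5 genes lie between -0.24 and -0.08 and spread along the dye axis.

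Across the cascade, 0 of the 3 genes with 4 ratios passed, against 0.0342% of all 2925 genes tested (1 gene). An unadjusted p under 0.05 was found for 741 genes (25.3%, limma), none of them among these 3. No cascade gene with 4 ratios was positive on all 4 arrays or negative on all 4 (0 of 3), against 6.87% and 19.3% of all genes. The median of the 3 means was -0.12, beside -0.13 over all genes tested. With the genes measured in each dye orientation, 6 of the cascade entered with a median balanced mean of -0.14, beside -0.15 over 3459 genes, and 3 of the 6 were below that median. The middle 50% of all gene means ran from -0.25 to 0.01. SLT2 lay above it and the means of PKC1, BCK1, RLM1, MSG5 and SDP1 lay within it.

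Downstream of the cascade, most known outputs had positive ratios, and none passed the test over all genes. The list of genes known to depend on Rlm1 or Slt2 held 23 genes, of which 18 had 4 ratios. Their median was 0.68 beside -0.13 for all genes. Of the 18, 13 were positive on all 4 arrays, against 6.87% of all genes. By limma 0 passed over all genes, while 13 had an unadjusted p under 0.05, against 25.3% of all genes. NCW2, a cell wall protein gene, led the list with 1.93 ± 0.25, ahead of the mannoprotein gene CWP1 with 1.71 ± 0.55, the membrane protein gene PUN1 with 1.60 ± 0.47 and the wall protein gene SED1 with 1.28 ± 0.15 (log2, SD, n = 4 arrays; limma, adjusted p = 0.0830 for each). If each ratio is instead turned by its dye labels, which was tried for this list after seeing the data, the median of the list becomes 0.16 beside 0.05 for all genes. Then 0 of the 18 are positive on all 4 arrays. For the 13 this is fixed in advance, because turning changes the sign on arrays 1 and 3. As deposited, NCW2 had 2.02, 2.13, 1.56 and 2.01 on arrays 1 to 4. After turning, NCW2, CWP1, PUN1 and SED1 have means of 0.14, 0.46, 0.04 and 0.11. With the values as deposited, the balanced mean of SLT2, 0.45, was exceeded by the means of 12 of the 18. This list was written with earlier results of these data known, so its direction is no independent evidence.

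Upstream of PKC1, sensors, the Rho1 module and related kinases (19 genes) were also sparsely measured, with a ratio on any array for 8 genes and 4 ratios for 5 genes. Of these 5, 0 passed (limma) and 1 had an unadjusted p under 0.05, against 25.3% of all genes. Their median was -0.14. The main sensor gene besides MID2, SLG1 (WSC1), gave ratios of -0.55, -0.32, -0.72 and -0.17 on arrays 1 to 4 (adjusted p = 0.163, limma). It was negative on all 4, the 1 such gene of 5, against 19.3% of all 2925 genes. RHO1 had 0.11 ± 0.17 and ROM1, the gene of a Rho1 exchange factor, -0.24 ± 0.35. LRG1, a Rho1 GTPase-activating protein gene, had a mean of 0.71 ± 1.31 that rested on array 3, where its ratio was 2.43. ZEO1, whose product binds Mid2, averaged -0.14 ± 0.56, with positive ratios where caspofungin RNA was in Cy3 and negative ones where it was in Cy5.

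The nuclear partners of Slt2 were hardly measured. SWI4, which encodes the DNA-binding subunit of the SBF factor that Slt2 acts on, had -0.16, -0.75 and -0.14 on arrays 2, 3 and 4 (adjusted p = 0.256 among genes with at least 3 values, limma), and SWI6 was blank. PAF1, whose product is part of an elongation complex that Slt2 binds, followed the dyes, with 0.83 and 0.87 for caspofungin RNA in Cy3 (arrays 1, 3) and -1.03 and -0.66 for caspofungin RNA in Cy5 (arrays 2, 4). It was the 1 gene of this 5-gene list with 4 ratios, with a mean of 0.00385, and did not pass.

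**Figure D3:**
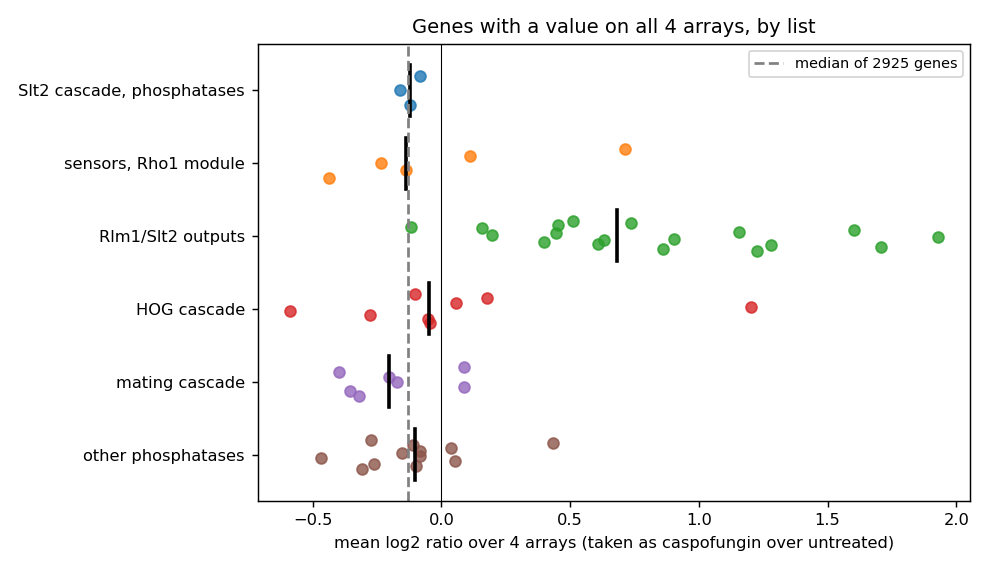
Mean log2 ratio over 4 arrays (x axis) of each gene with 4 values, by list (rows); black bars are list medians and the dashed line is the median of all 2925 genes. The 3 Slt2 cascade genes lie beside the dashed line, and 17 of the 18 outputs lie above 0.

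The other MAP kinase cascades gave medians near that of all genes, and none of their genes passed. The high osmolarity cascade had a median of -0.05 over 8 of 14 genes. Of these 8, 0 passed (limma) and 2 had an unadjusted p under 0.05, against 25.3% of all genes. Its MAP kinase gene HOG1 was the 1 gene of these 8 positive on all 4 arrays, against 6.87% of all genes. It had 0.11, 0.08, 0.18 and 0.34 on arrays 1 to 4 (limma, adjusted p = 0.290). PBS2, the kinase gene above HOG1, had 0.07, -0.06 and 0.51 on arrays 2, 3 and 4. MSB2, a membrane mucin gene of this pathway, had 1.20 ± 1.02 with -0.05 on array 1 and 2.40 on array 3 (adjusted p = 0.200), SHO1, an osmosensor gene, -0.59 ± 0.53 (adjusted p = 0.188), and SSK1, a response regulator gene, -0.28 ± 0.21. SHO1 was the 1 gene of the 8 negative on all 4 arrays, against 19.3% of all genes.

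The mating and filamentous cascade had a median of -0.20 over 7 of 15 genes. Of these 7, 0 passed (limma) and 2 had an unadjusted p under 0.05, against 25.3% of all genes. On all 4 arrays 2 of the 7 were negative and 0 were positive, against 19.3% and 6.87% of all genes. Its MAP kinase gene FUS3 had -0.18, -0.54 and -0.43 on arrays 1, 2 and 4, and KSS1 had -0.31 and -0.26 on arrays 2 and 4. These ratios were negative on each array that measured them, whereas those of SLT2 and KDX1 were positive; on array 2, which measured all 4 genes, SLT2 and KDX1 had 0.14 and 0.47, against -0.54 and -0.31 for FUS3 and KSS1. That difference was not tested, and negative ratios were common, since 73.0% of all genes with 4 ratios had a mean below 0. STE7 had a single ratio of -0.01 and STE11 was blank. Among the 7 genes with 4 ratios, the largest absolute means were those of DIG2 (-0.40 ± 0.34) and DIG1 (-0.20 ± 0.27), whose products restrain the factor Ste12, the G protein subunit gene GPA1 (-0.36 ± 0.52) and the pheromone receptor gene STE2 (-0.32 ± 0.29). The sporulation MAP kinase gene SMK1 had 0.20 on array 2 and -0.23 on array 4.

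Among 16 other phosphatase genes, 12 had 4 ratios, with a median of -0.10. By limma 0 passed, and 1 higher and 3 lower had an unadjusted p under 0.05, against 25.3% of all genes in either direction. PTP3, the paralogue of the blank PTP2, had -0.32, 0.01, -0.06 and -0.01 on arrays 1 to 4, with a mean of -0.10 ± 0.15 (adjusted p = 0.537). PTP1 had -0.31 ± 0.49 and, like MSG5, was negative with caspofungin RNA in Cy3 and positive with it in Cy5. Of these 12, PTC4, a type 2C phosphatase gene, had the highest mean, 0.43 ± 0.38, and SIW14 the lowest, -0.47 ± 0.38, while PTC6 had -0.27 ± 0.71. MIH1 had a single ratio of -0.21.

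Of the lists for cell type, 6 of 7 a-cell genes had 4 ratios, with a median of -0.36. By limma 0 of these 6 passed, against 0.0342% of all genes, and 4 had an unadjusted p under 0.05, against 25.3%. Of the 6, 5 were negative on all 4 arrays, against 19.3% of all genes. The lowest means were those of AGA2 with -0.85 ± 0.43 and MFA1 with -0.76 ± 0.29, and MFA2 had -0.39 ± 0.16. BAR1 had ratios of mixed sign and a mean of -0.0039. No alpha-cell gene (0 of 4) and 1 of 9 sporulation genes, ZIP1 with -0.15 ± 0.23, had 4 ratios. HIS3 and LEU2, disrupted in this background, had negative ratios with caspofungin RNA in Cy3 and positive ones with it in Cy5, with means of -0.12 ± 0.59 and -0.18 ± 0.50. MSG5 showed this sign pattern too, as did 19.7% of all genes with 4 ratios. Whether these shifts have a part in the ratios of the cascade was not tested.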

How the data were processed

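The deposited values are log2 ratios of the 2 channels, 1 per gene and array, in the authors' series table. Base 2 was inferred, since the linear ratios so obtained matched numbers of 4 decimals (tolerance 2e-06) in 100% of cells, against at most 4.88% under base e or 10. No source used here gives the software, background correction, normalization, blanking rule or genome build, and scale, centring and direction of the deposited log2 ratios stay unknown. Array medians over the 2925 genes with 4 values were -0.10, -0.06, -0.22 and -0.07, and 3215, 4346, 3228 and 3538 of 6207 genes had a value. The number of arrays limits the precision. RefSeq (assembly R64) supplied the symbols (5654 rows matched, 553 kept their name).

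limma 3.58.1 in R 4.3.3 tested the culture means against 0, for the pairing of arrays 1 with 2 and 3 with 4 and for that of 1 with 4 and 2 with 3. The larger p was adjusted by Benjamini-Hochberg over all genes tested (threshold 0.05). With 2 cultures, p-values measure their spread only. The fit was tested on simulated data. Tried as alternatives were at least 3 values, centring, scaling, turning by dye labels, single pairings, arrays as replicates and leaving out each array. Genes with all values blank were left out.

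Named are the 10 cascade genes, of each list the 4 of largest absolute mean, 13 genes fixed by name and the 3 nearest genes of MSG5. BAR1 and the 3 nearest genes of BCK1 and of SDP1 were named in addition to that rule. The members and lists were chosen with earlier results of these data known. Protein and promoter sequences were not used here.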

Additional observations from a re-analysis of the deposited data

Results flagged for a closer look

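SHO1, the osmosensor gene, had 1 ratio far from the others: -1.37 on array 3, with a gap to the nearest ratio that was 0.845 of its whole range. Among 32 genes looked at this was the 1 such case, where chance alone gives about 1 in 20. BCK1, MSG5 and SDP1 had no such ratio.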

How the results depend on the processing

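The count of cascade genes past the threshold was 0 under all 12 alternatives run. Of these, only the fit with at least 3 values held SLT2 and PKC1. The others could count only BCK1, MSG5 and SDP1. The median of these 3 genes less that of all genes was 0.00721. It ran from -0.13 to 0.18 without each array and was -0.27 with values turned by the dye labels. On single arrays it ran from -0.51 on array 4 to 0.58 on array 3 (SD between arrays 0.452). The count of all genes past the threshold, 1, was 0 with at least 3 values and with values turned by the dye labels, 10 with arrays centred, 355 with arrays scaled, 148 with arrays 1 and 4, and 2 and 3, as cultures, 109 with arrays as replicates and a dye term, 17 without that term, and 1 to 61 without each array (61 without array 1, 56 without array 3). The cause was not tested. Cascade genes with 1 sign on all arrays were 0, but 2 (PKC1 and SLT2) with at least 3 values, 1 with values turned by the dye labels, and 0 to 2 without each array (BCK1 and SDP1 without array 3). MSG5 had 0.27 (adjusted p = 0.133) turned by the dye labels. SDP1 had 0.0313 with arrays centred, and ran from -0.23 to 0.0855 without each array (highest without array 4). BCK1 ran from -0.30 to 0.0503 without each array. SLT2 ran from 0.36 to 0.77 without each array, and was -0.46 turned by the dye labels. The same turning took the median of the outputs list from 0.68 to 0.16. The sign given for SLT2 is that of the ratios as deposited.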
